A study of Mus musculus with 6 samples.

Results

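The histone genes of the array were taken as the features, here called rows, of the deposited value table in which each platform gene symbol was a histone symbol of the H1f, H2ac, H2bc, H3c or H4c families. Rows with identical values were counted once, which left 46 histone rows of 22846 rows that carry at least 1 gene symbol. By type they comprised 8 rows of linker histone H1, 4 of H2A, 9 of H2B, 13 of H3, 11 of H4 and 1 that carries both an H1 and an H2B symbol. A single symbol was given for 30 rows, 2 rows carried 2 symbols, and 14 rows carried more. Overlap of probes between near-identical histone copies was not examined, and it bears on single-symbol rows as well. Of these 14, 10 rows shared a set of 12 H3 symbols and 4 rows shared a set of 11 H4 symbols, so a change in them cannot be assigned to 1 gene. The name replication-linked did not hold for 6 of the 46 rows. H1f10 is a replacement linker histone, H1f6 and H1f7 are linker histones of male germ cells, H1f8 is the linker histone of the oocyte, and H2ac1 and H2bc1 are testis core histones.

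Mature B cells from mouse spleen had been activated, infected with a retrovirus that also encodes a green fluorescent protein, kept with mitogen for 36 h and then without it for 24 h, and sorted for green fluorescence. The MYD88_L265P group received MYD88 with the L265P substitution, the IKK_K171E group received IKK with the K171E substitution, and the EV group received the empty vector. MYD88 is the adaptor of Toll-like and interleukin-1 receptors, L265P is an activating change recurrent in human B cell lymphomas, and IKK is the kinase that releases NF-kB. Each group had 2 arrays (Affymetrix mouse ST 1.0), which the labels call biological replicates. All 3 groups share the activation, the infection and the culture, so EV is a vector control and not a resting B cell. The labels do not give the strain, age or number of the mice. In bulk samples such as these, fewer cells making a transcript and less of it per cell cannot be told apart.

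Replication-linked histone genes supply the nucleosomes of newly made DNA. They lie in clusters, mostly have no introns, and are transcribed as cells enter S phase under NPAT. Their transcripts end in a stem-loop instead of a poly(A) tail. The stem-loop binding protein SLBP and the U7 small nuclear RNP direct the cut that forms this end, and the transcripts are degraded when replication stops. Many replacement and variant histones are made outside S phase as well, from ordinary polyadenylated transcripts. How the RNA was primed for labelling is not stated by the labels. Of the 30 rows with a single symbol, 23 lie on chromosome 13, 4 on chromosome 3, 2 on chromosome 6 and 1 on chromosome 15 (GRCm38.p6).

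The promoters of the 5 genes that passed the test in MYD88_L265P over EV, and of H4c8, the H4 gene with the fold change nearest to 0, are printed so that 3 promoter elements can be looked for in them. Each runs from 250 bases before to 50 bases after the start of the gene in RefSeq on GRCm38.p6, and is printed 5′ to 3′ on the strand of the gene. Capitals mark the octamer ATTTGCAT, the TATA box TATAAA and the CCAAT box CCAAT, in either direction.
H1f1 (chr13:23763418-23763717, plus strand): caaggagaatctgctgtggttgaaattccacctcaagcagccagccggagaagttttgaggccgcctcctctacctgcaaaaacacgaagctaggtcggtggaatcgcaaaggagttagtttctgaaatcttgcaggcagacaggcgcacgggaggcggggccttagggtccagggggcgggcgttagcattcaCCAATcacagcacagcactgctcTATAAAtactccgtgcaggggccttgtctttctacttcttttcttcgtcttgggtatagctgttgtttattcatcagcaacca
H1f5 (chr13:21780576-21780875, minus strand): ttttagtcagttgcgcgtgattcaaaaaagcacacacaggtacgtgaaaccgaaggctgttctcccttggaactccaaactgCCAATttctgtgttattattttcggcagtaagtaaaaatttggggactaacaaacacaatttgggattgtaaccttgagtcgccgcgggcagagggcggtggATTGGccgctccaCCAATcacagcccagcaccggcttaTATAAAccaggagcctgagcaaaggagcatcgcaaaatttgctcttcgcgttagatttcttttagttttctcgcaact
H2ac8 (chr13:23571171-23571470, minus strand): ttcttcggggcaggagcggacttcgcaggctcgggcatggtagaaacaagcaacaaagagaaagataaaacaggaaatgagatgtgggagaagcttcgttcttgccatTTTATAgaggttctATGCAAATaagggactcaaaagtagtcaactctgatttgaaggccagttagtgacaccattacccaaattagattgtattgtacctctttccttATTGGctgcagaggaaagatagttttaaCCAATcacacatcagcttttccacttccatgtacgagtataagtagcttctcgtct
H2bc14 (chr13:21721794-21722093, plus strand): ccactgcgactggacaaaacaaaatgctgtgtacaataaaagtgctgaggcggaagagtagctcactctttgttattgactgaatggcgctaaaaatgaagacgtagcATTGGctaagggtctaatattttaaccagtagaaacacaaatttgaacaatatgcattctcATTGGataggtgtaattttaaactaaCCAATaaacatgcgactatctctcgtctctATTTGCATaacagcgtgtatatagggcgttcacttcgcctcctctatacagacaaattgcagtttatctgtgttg
H4c9 (chr13:22041313-22041612, minus strand): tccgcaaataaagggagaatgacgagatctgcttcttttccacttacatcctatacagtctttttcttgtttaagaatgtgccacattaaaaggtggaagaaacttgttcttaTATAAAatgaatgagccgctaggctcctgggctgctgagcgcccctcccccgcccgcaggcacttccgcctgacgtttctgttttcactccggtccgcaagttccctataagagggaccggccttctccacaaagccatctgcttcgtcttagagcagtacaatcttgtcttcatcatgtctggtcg
H4c8 (chr13:23530794-23531093, plus strand): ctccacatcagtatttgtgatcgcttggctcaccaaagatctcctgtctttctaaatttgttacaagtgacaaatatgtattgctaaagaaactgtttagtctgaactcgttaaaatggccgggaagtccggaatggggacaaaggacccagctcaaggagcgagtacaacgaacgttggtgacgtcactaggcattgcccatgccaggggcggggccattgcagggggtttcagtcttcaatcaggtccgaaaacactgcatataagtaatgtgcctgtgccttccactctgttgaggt
Of the 47 histone symbols on the rows, 42 had a promoter in the RefSeq table, with 43 promoters in all. The octamer is the element bound by the POU factors OCT-1 and OCT-2. It stood in 3 of 4 H2A promoters and 6 of 9 H2B promoters, but in 0 of the H1, H3 and H4 promoters. The windows of H2ac1 and H2bc1 overlap by 220 bases and those of H2ac8 and H2bc8 by 279, and in each pair the same octamer was counted for both genes. That made 20.9% of the histone promoters, against 1.74% of all 32851 promoters in the table. TATAAA stood in 55.8% of histone promoters and 13.6% of all promoters, and CCAAT in 76.7% and 37.4%. All 10 H3 promoters held CCAAT, and 3 of 11 H4 promoters did. The printed H4c8 window holds none of the 3 elements, and that of H4c9 holds TATAAA at position -137 but no octamer or CCAAT. In the printed H2ac8 window, the octamer at position -128 and TATAAA at position -142 stand in the reverse direction. These matches describe letters in these windows only, in either direction and at any position.

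Across the whole table, array medians lay between 8.03 and 8.13 on the log2 scale, and arrays of a group correlated at 0.988 or higher across rows. Arrays of different groups correlated at 0.969 to 0.990. MYD88_L265P replicate 1 with IKK_K171E replicate 1 (0.9904) and IKK_K171E replicate 2 with EV replicate 1 (0.9889) exceeded the EV arrays with each other (0.9884). The transduced genes were checked first, with Ikbkb taken for IKK, since the labels do not name the subunit. Myd88 had 12.25 and 12.31 on the MYD88_L265P arrays, against 9.30 and 9.35 on the EV arrays (log2 fold change 2.96 ± 0.11 SE, limma adjusted p = 0.000618). Ikbkb, which encodes an IKK kinase subunit, had 11.35 and 10.68 on the IKK_K171E arrays, against 9.98 and 10.22 on the EV arrays, a difference of 0.91 ± 0.21 that did not pass (adjusted p = 0.101). On the MYD88_L265P arrays Ikbkb had 9.69 and 9.68, and it was called lower in MYD88_L265P over IKK_K171E (-1.33 ± 0.21, limma adjusted p = 0.0417). The mean log2 signal of 7 B cell markers was 11.26 and 11.33 on the MYD88_L265P arrays, between 11.37 and 11.48 on the IKK_K171E arrays and 11.85 on both EV arrays. In MYD88_L265P over EV, 4 of the 7 B cell markers (Blk, Cd22, Cd79b and Ebf1) were called lower, as were 6.62% of all rows. Also called lower there were 2 of 6 T cell markers (Cd3e and Cd4), 1 of 8 monocyte and macrophage markers (Adgre1), 1 of 5 NK cell markers (Klrd1) and 0 of 3 erythroid markers. The mean of 6 T cell markers was 7.49 to 7.58 in MYD88_L265P, 8.04 to 8.18 in IKK_K171E and 7.92 to 7.93 in EV. For 8 monocyte and macrophage markers the mean was 9.07 to 9.30, 9.71 to 9.96 and 9.40 to 9.47 in the same order of groups. The mean of 5 NK cell markers was 6.66 to 6.74, 6.88 to 7.20 and 6.92 to 6.99, and that of 3 erythroid markers 8.07 to 8.11, 8.14 to 8.27 and 8.22 to 8.27. Of the T cell markers, Cd3e and Cd3g were called lower in MYD88_L265P over IKK_K171E (0.661% of all rows). Of the monocyte and macrophage markers, Csf1r was called higher and Adgre1 lower in IKK_K171E over EV (0.687% and 0.271% of all rows). The table holds no detection calls, and the part of these cells in the histone results was not tested.

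EV replicate 2 stood apart on the histone rows. It was the lowest of the 6 arrays in 35 of the 46 rows, against 15.5% of all rows. EV replicate 1 exceeded EV replicate 2 in 43 of 46 rows, by a median of 0.84 on the log2 scale. This gap had a median of 0.40 in the 30 single-symbol rows and of 0.70 in the 24 of them that are replication-linked. In the 40 replication-linked rows this gap had a median of 1.02, and in the 6 replacement or tissue-restricted rows 0.10. The same gap between replicates had a median of 0.04 in MYD88_L265P and 0.27 in IKK_K171E over the 46 rows, and the median size of the gap over all rows was between 0.09 and 0.13 in each group. The medians over the 46 rows in comparisons with EV are therefore given with both EV arrays and with each left out. Single rows and lists are given this way only in part, more often without EV replicate 2 alone. With a single EV array, that array is assumed to vary like the arrays of the other groups.

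**Figure D1:**
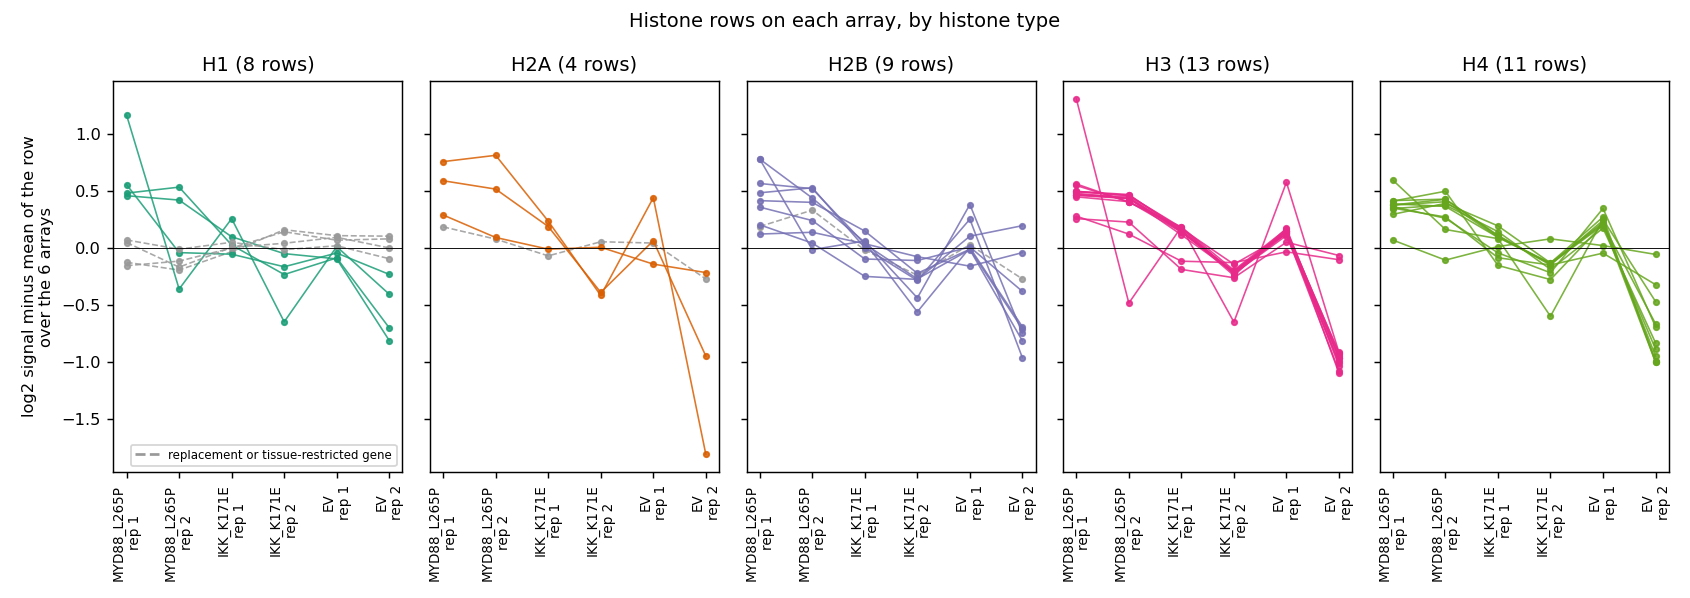
Log2 signal of each histone row minus the mean of that row over the 6 arrays, by histone type, with arrays on the horizontal axis and 1 line per row. Lines join values of the same row and imply no order of arrays. Dashed grey lines are the 6 replacement or tissue-restricted genes. EV replicate 2 is the lowest array in 35 of 46 rows (45 are drawn, without the row of mixed type), and MYD88_L265P replicate 1 the highest in 31 of 46.

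Relative to the mean of each row, the 40 replication-linked rows had medians of 0.46 and 0.40 on the MYD88_L265P arrays, 0.09 and -0.22 on the IKK_K171E arrays and 0.13 and -0.83 on the EV arrays. Both MYD88_L265P arrays were thus high, EV replicate 2 was low, and EV replicate 1 lay level with IKK_K171E replicate 1. MYD88_L265P replicate 1 was above the row mean in all 40 rows and MYD88_L265P replicate 2 in 35. EV replicate 1 was above the row mean in 30 of the 40 rows and EV replicate 2 in 1. The 6 replacement or tissue-restricted rows had medians between -0.07 and 0.06 on each array.

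MYD88_L265P over EV asked how the B cell lymphoma mutant altered the transcriptome of these cells. Of the 46 histone rows, 5 were called higher and 0 lower at a limma p adjusted below 0.05 over all 22846 rows, where 8.59% of all rows were called higher and 6.62% lower. The share of histone rows called, 5 of 46, was thus near the share of all rows called higher. The 5 were the linker histones H1f1 and H1f5, H2ac8, H2bc14 and H4c9. At an unadjusted p below 0.05 there were 26 histone rows, 25 of them higher, against 8671 of all rows. The log2 fold change was positive in 41 of 46 rows, with a median of 0.70, against a median of -0.11 over all rows. Both MYD88_L265P arrays lay above both EV arrays in 34 of 46 histone rows, and in 23.1% of all rows. Of the 30 rows with a single symbol, 25 were positive, with a median of 0.49, and 20 had both MYD88_L265P arrays above both EV arrays. The 24 of these that are replication-linked had a median of 0.59. Replication-linked rows had a median of 0.76, and the 6 others a median of -0.02.

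These values depended on the EV array used. With EV replicate 2 left out, 0 of 46 histone rows were called higher (3.18% of all rows), the median was 0.27, and 40 of 46 rows were positive. With EV replicate 1 left out, 28 histone rows were called higher (8.36% of all rows), at a median of 1.20. The SE of the fold change ranged from 0.09 to 0.68 over the 46 rows. In the 5 called rows, all with a single symbol, the EV arrays differed by 0.07 to 0.80. The median gap was 0.84 over the 46 rows and 0.40 over the 30 single-symbol rows.

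Linker histones H1 bind the DNA between nucleosomes. H1f5 had 9.82 and 9.87 on the MYD88_L265P arrays, against 9.25 and 8.64 on the EV arrays, a log2 fold change of 0.90 ± 0.20 (SE, adjusted p = 0.031). H1f1 had 9.84 and 9.80, against 9.28 and 8.57 in EV, a change of 0.89 ± 0.21 (adjusted p = 0.0384). For both genes the MYD88_L265P arrays agreed closely and lay above both EV arrays. With EV replicate 1 left out, the change was 1.21 for H1f5 and 1.25 for H1f1. Without EV replicate 2 the change was 0.59 for H1f5 and 0.54 for H1f1, and neither passed (adjusted p = 0.0618 and 0.0543). H1f3 had 7.19 and 6.59 in MYD88_L265P, against 6.59 and 6.40 in EV, with a change of 0.40 ± 0.19 that did not pass (adjusted p = 0.170). H1f2 had 10.53 and 9.01, against 9.38 and 8.96, and its MYD88_L265P arrays lay on either side of EV replicate 1 (0.60 ± 0.50, adjusted p = 0.391).

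H2A and H2B form the dimers on either side of the nucleosome core. H2ac4 had the largest fold change of all 46 rows, at 1.47 ± 0.64, but did not pass (adjusted p = 0.142). Its values were 9.37 and 9.43 on the MYD88_L265P arrays and 9.05 and 6.80 on the EV arrays, so that the EV arrays differed from each other by 2.25, more than the change itself. H2ac15 had 9.64 and 9.57 in MYD88_L265P and 9.12 and 8.11 in EV (1.00 ± 0.33, adjusted p = 0.0793). H2ac8 was called at a small change of 0.37 ± 0.10 (adjusted p = 0.0492) and at a low signal, with 5.72 and 5.52 in MYD88_L265P against 5.28 and 5.21 in EV, and lost its call without EV replicate 2 (0.33, adjusted p = 0.158).

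Among H2B genes, H2bc14 had 10.58 and 10.53 on the MYD88_L265P arrays, against 10.00 and 9.20 on the EV arrays, a change of 0.96 ± 0.25 (adjusted p = 0.0459). This change was 0.56 without EV replicate 2 (adjusted p = 0.0807). H2bc8 reached nearly the same change, 0.95 ± 0.28, with 9.60 and 9.26 against 8.82 and 8.13 in EV, and did not pass (adjusted p = 0.0622). H2bc3, H2bc18 and H2bc9 had changes of 0.86, 0.77 and 0.49, with both MYD88_L265P arrays above both EV arrays, and did not pass (adjusted p = 0.122, 0.0647 and 0.0563). H2bc4 had 7.87 and 7.08 in MYD88_L265P and 7.47 and 6.34 in EV (0.57 ± 0.41, adjusted p = 0.324). H2bc21 encodes an H2B variant that mouse neurons also make outside S phase. It had 9.85 and 9.69 in MYD88_L265P and 9.75 and 9.84 in EV, with a change of -0.03 ± 0.09 (adjusted p = 0.846). H2bc22 had 7.09 and 7.11 in MYD88_L265P, against 6.81 and 6.93 in EV (0.23 ± 0.09, adjusted p = 0.117).

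H3 and H4 form the tetramer at the centre of the nucleosome. The 10 rows that share 12 H3 symbols had 10.54 to 11.31 and 10.50 to 11.18 on the MYD88_L265P arrays, against 10.15 to 10.89 on EV replicate 1 and 9.05 to 9.69 on EV replicate 2. Their changes lay between 0.81 and 0.96, the lowest adjusted p being 0.0954, and both MYD88_L265P arrays lay above both EV arrays in all 10. The changes of these rows lay between 0.28 and 0.37 without EV replicate 2, and between 1.35 and 1.58 without EV replicate 1. Since the 10 rows share symbols, they are not 10 separate genes. Both H3c4 and H3c7 had smaller fold changes. H3c4 had 8.45 and 8.29 in MYD88_L265P against 8.14 and 8.07 in EV (0.27 ± 0.09, adjusted p = 0.0867), and H3c7 had 5.86 and 5.83 against 5.66 and 5.54 (0.25 ± 0.09, adjusted p = 0.0917). H3c15 had 7.75 and 5.96 in MYD88_L265P and 7.02 and 5.53 in EV, so that the replicates differed by far more than the groups (0.58 ± 0.68, adjusted p = 0.534).

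For H4, the 4 rows that share 11 symbols had 11.66 to 11.93 and 11.65 to 11.94 on the MYD88_L265P arrays, against 11.49 to 11.72 on EV replicate 1 and 10.30 to 10.51 on EV replicate 2. Their changes lay between 0.72 and 0.82 and none passed, the lowest adjusted p being 0.134. These changes lay between 1.26 and 1.42 without EV replicate 1, and between 0.16 and 0.21 without EV replicate 2. H4c9 was called, with 8.55 and 8.48 in MYD88_L265P against 8.16 and 7.88 in EV, a change of 0.49 ± 0.11 (adjusted p = 0.0337), which was 0.36 without EV replicate 2 (adjusted p = 0.112). H4c3, H4c6 and H4c4 had larger changes of 0.68, 0.69 and 0.71 with larger errors (adjusted p = 0.102, 0.139 and 0.196). H4c14 overlapped, with 10.33 and 10.22 in MYD88_L265P and 10.31 and 9.27 in EV. H4c8 had 7.87 and 7.69 in MYD88_L265P and 7.82 and 7.74 in EV, a change of 0.00 ± 0.10 (adjusted p = 0.995).

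The replacement and tissue-restricted rows had changes of either sign. H1f10 had 8.12 and 8.06 in MYD88_L265P, against 8.36 and 8.35 in EV (-0.27 ± 0.10, adjusted p = 0.0987), and H1f6 had a change of similar size (-0.21 ± 0.09, adjusted p = 0.135). H2bc1 had 7.32 and 7.46 in MYD88_L265P, against 7.16 and 6.86 in EV (0.38 ± 0.13, adjusted p = 0.0913), and H2ac1 a change of 0.25 ± 0.12 (adjusted p = 0.189). H1f7 and H1f8 had changes of -0.11 and 0.07. None of the 6 passed.

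**Figure D2:**
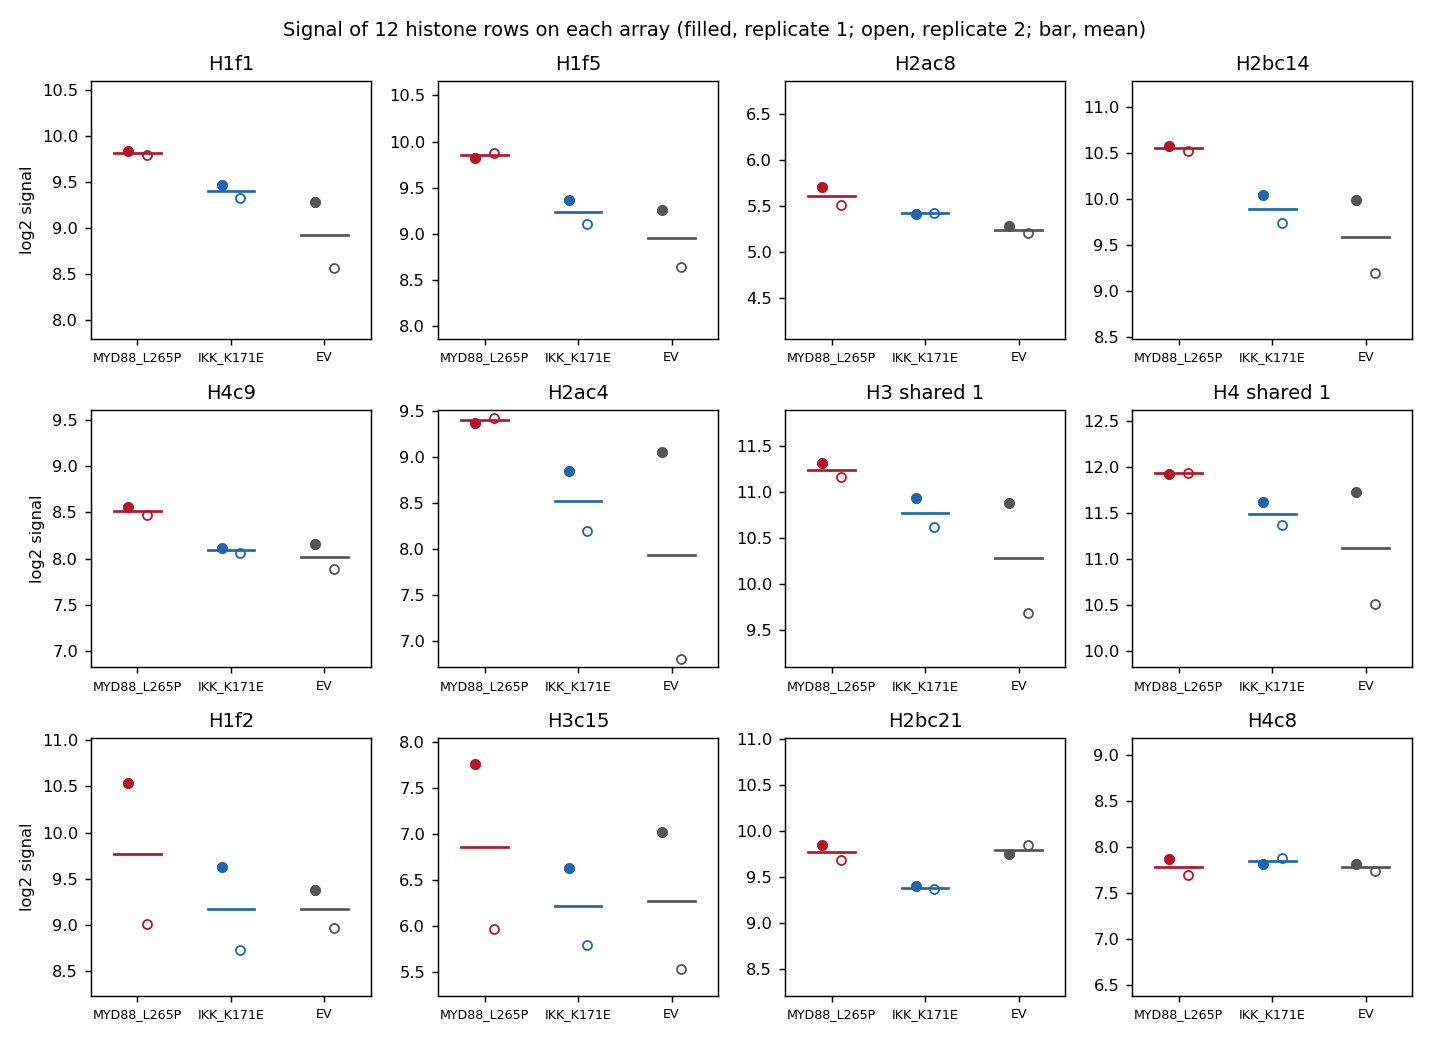
Log2 signal (vertical axis) of 12 histone rows in MYD88_L265P, IKK_K171E and EV, with filled points for replicate 1, open points for replicate 2 and a bar at the mean of the 2 arrays. All panels span the same number of log2 units, and H3 shared and H4 shared are examples of rows that carry several symbols. H2ac4 shows an EV gap of 2.25, while H4c8 stays between 7.69 and 7.88 on all arrays.

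IKK_K171E over EV set the kinase mutant against the same vector. Of the 46 histone rows, 0 were called in limma, against 0.687% of all rows called higher and 0.271% lower. At an unadjusted p below 0.05 there were 2 histone rows, both lower in IKK_K171E, against 3734 of all rows. The median change was 0.20, against -0.04 over all rows, and 35 of 46 rows were positive. In the 30 single-symbol rows the median was 0.065, and 21 were positive. Both IKK_K171E arrays lay above both EV arrays in 2 rows, H1f1 and H2ac8, against 17.4% of all rows. In 22 of 46 rows both IKK_K171E arrays lay between the EV arrays, against 12.6% of all rows. H2ac4, with the largest positive change of the comparison, had 8.85 and 8.20 in IKK_K171E against 9.05 and 6.80 in EV (0.59 ± 0.64, adjusted p = 0.701). H1f1 had 9.48 and 9.33 in IKK_K171E against 9.28 and 8.57 in EV (0.48 ± 0.21, adjusted p = 0.334). The shared H3 rows had changes of 0.34 to 0.49 and the shared H4 rows of 0.32 to 0.38, none of which passed.

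The sign of most of these changes rested on EV replicate 2. When it was left out, the median over the 46 rows was -0.17, 5 rows were positive and 0 were called (0.306% of all rows were called higher). When EV replicate 1 was left out instead, the median was 0.64 and 16 rows were called higher (1.78% of all rows). By histone type, the median without EV replicate 2 was -0.03 for H1, -0.11 for H2A, -0.16 for H2B, -0.18 for H3 and -0.24 for H4. Both IKK_K171E arrays lay below both EV arrays in 3 rows, H2bc21, H3c4 and H3c7, against 28.0% of all rows. H2bc21 had 9.39 and 9.37 in IKK_K171E, against 9.75 and 9.84 in EV (-0.41 ± 0.09, adjusted p = 0.101), and its change stayed at -0.37 or below with either EV array left out. H3c7 had 5.42 and 5.35 in IKK_K171E, against 5.66 and 5.54 in EV (-0.22 ± 0.09, adjusted p = 0.290).

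**Figure D3:**
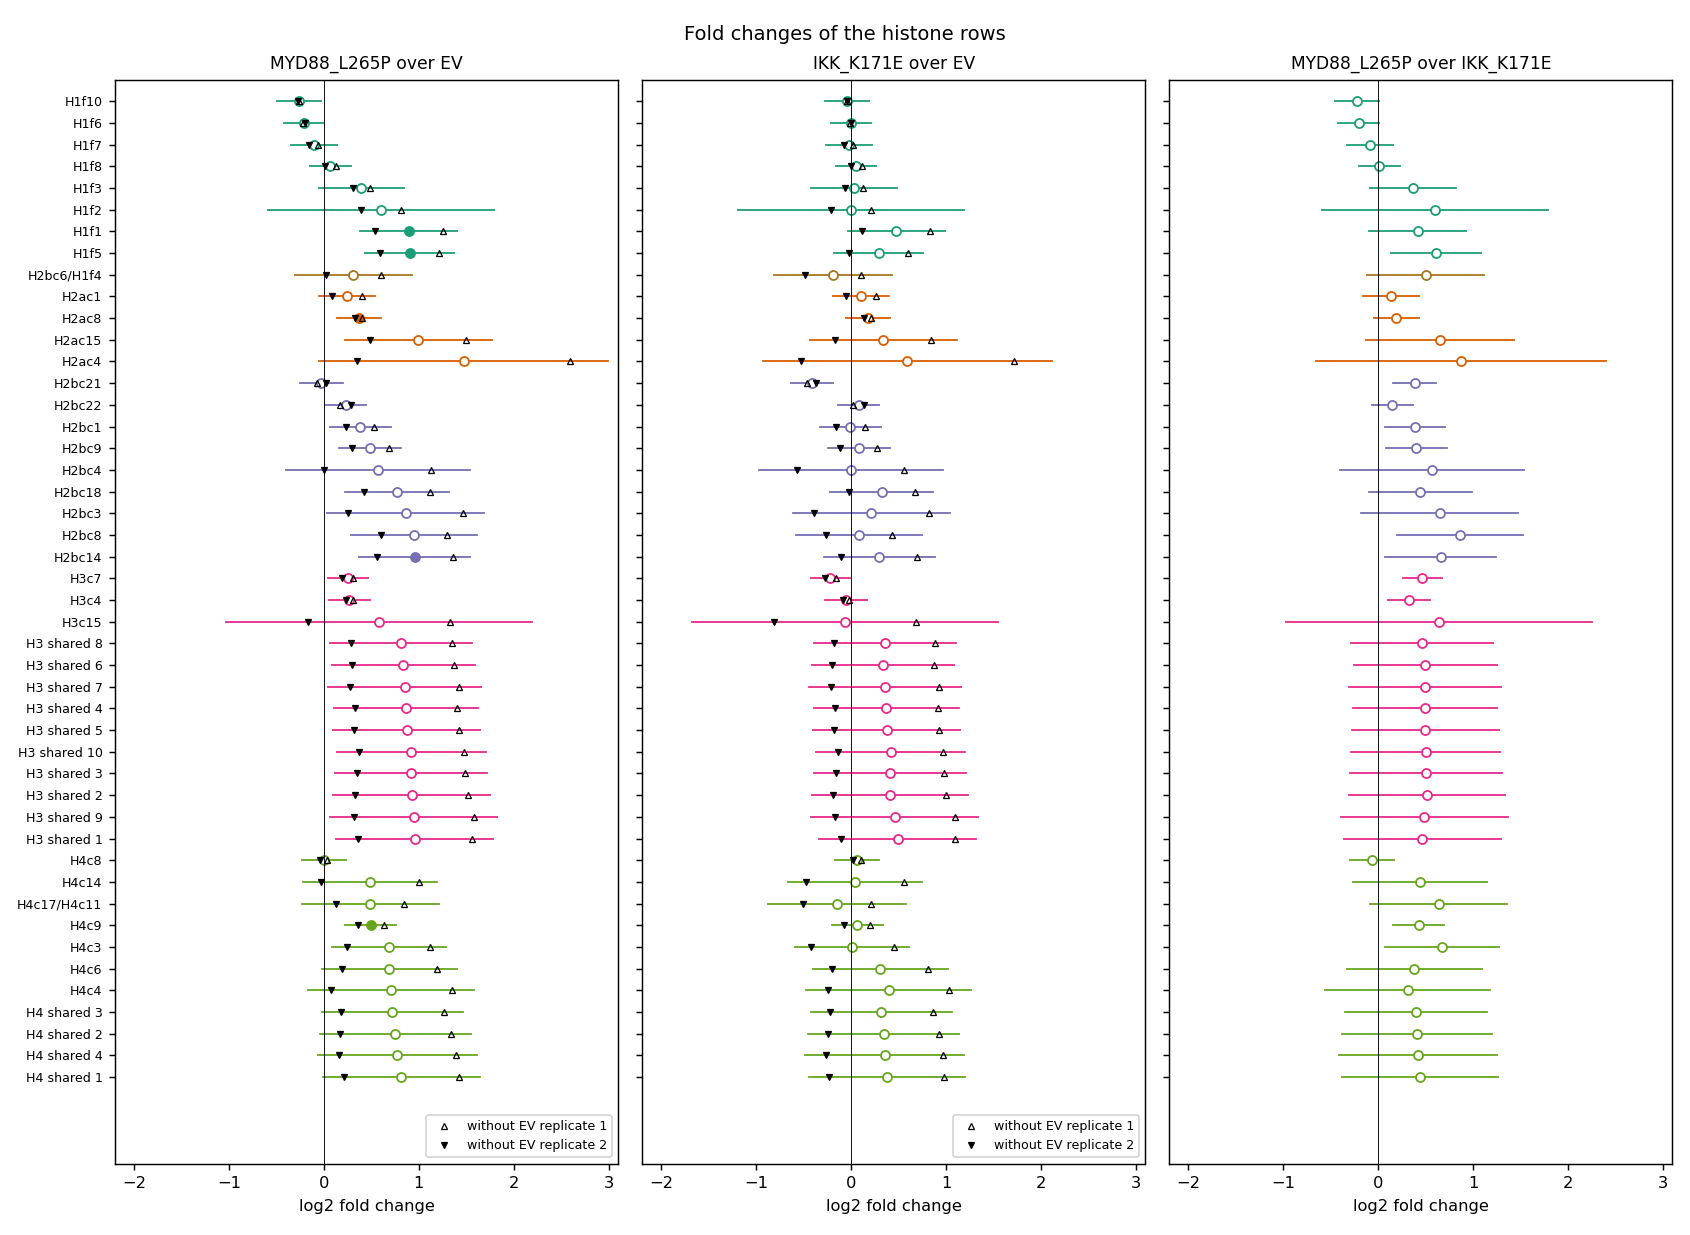
Log2 fold change (horizontal axis) of each of the 46 histone rows in the 3 comparisons, by histone type in colour, with 95% confidence intervals from limma; filled circles were called (5 in the first panel). Triangles give the value without EV replicate 1 (pointing up) or without EV replicate 2 (pointing down). In IKK_K171E over EV the median is 0.64 without replicate 1 and -0.17 without replicate 2, while MYD88_L265P over IKK_K171E uses no EV array for its fold changes.

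MYD88_L265P over IKK_K171E compared both signalling mutants directly, and its fold changes use no EV array. The median over the 46 histone rows was 0.45, against -0.05 over all rows, and 42 of 46 rows were positive. In the 30 single-symbol rows the median was 0.41, and 26 were positive. Both MYD88_L265P arrays lay above both IKK_K171E arrays in 38 of 46 rows, and in 20.8% of all rows. No histone row was called in limma (0.661% of all rows were called higher and 0.661% lower), and 10 of the 46 had an unadjusted p below 0.05, all 10 positive, against 4362 of all 22846 rows. By type, the medians were 0.19 for H1, 0.42 for H2A, 0.44 for H2B, 0.49 for H3 and 0.42 for H4. The replication-linked H1 rows with a single symbol, 4 in number, had a median of 0.51. When each of the 4 arrays of these groups was left out in turn, the median over the 46 rows stayed between 0.30 and 0.59.

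H3c7 came nearest to the threshold, with 5.86 and 5.83 in MYD88_L265P against 5.42 and 5.35 in IKK_K171E, a change of 0.47 ± 0.09 (adjusted p = 0.0645) at a low signal. H2bc21 had 9.85 and 9.69 against 9.39 and 9.37 (0.39 ± 0.09, adjusted p = 0.117), and H4c9 had 8.55 and 8.48 against 8.12 and 8.06 (0.43 ± 0.11, adjusted p = 0.135). The change of H2ac4 was again the largest at 0.88 ± 0.64 (adjusted p = 0.464), followed by H2bc8 at 0.86 ± 0.28 (adjusted p = 0.186). The shared H3 rows had changes of 0.46 to 0.52 and the shared H4 rows of 0.40 to 0.44. In all 14 shared rows the 2 MYD88_L265P arrays lay above the 2 IKK_K171E arrays. H4c3 had 9.68 and 9.77 in MYD88_L265P against 9.12 and 8.99 in IKK_K171E (0.67 ± 0.25, adjusted p = 0.233), and passed when either EV array was left out of the fit (adjusted p = 0.0271), where the shared estimate of the spread no longer held the difference between the EV arrays. The exceptions to the general direction were H1f10, H1f6, H1f7 and H4c8, with changes of -0.22, -0.21, -0.08 and -0.07.

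A small set of rows differed between the MYD88_L265P replicates. Replicate 1 was higher than replicate 2 by over 0.3 on the log2 scale in 7 of 46 histone rows, against 3.78% of all rows. This limit was chosen after the values were seen, and rows in which replicate 2 was higher were not counted. The 7 were H3c15 at 1.79, H1f2 at 1.53, H2bc4 at 0.79, H1f3 at 0.60, H2bc8 at 0.34 and the rows H4c17/H4c11 and H2bc6/H1f4 at 0.43 and 0.33. The same limit was exceeded in 22 histone rows in IKK_K171E (8.95% of all rows) and in 33 in EV (7.23% of all rows). Replicate 1 exceeded replicate 2 in IKK_K171E and in EV as well for all 7, which was also so in 40 of the 46 histone rows in IKK_K171E and in 43 in EV. For H1f2 the IKK_K171E arrays had 9.63 and 8.72, and for H3c15 they had 6.63 and 5.79. The shared H3 and H4 rows, in contrast, differed by at most 0.16 between the MYD88_L265P arrays.

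The length of the gene as annotated also separated a few rows. Of the 24 single-symbol rows of replication-linked genes, 21 span 375 to 903 bases, as a histone gene without introns does. H2bc21, H2bc4 and H2bc22 span 2667, 8282 and 14079 bases. H2bc21 and H2bc22 were the only 2 of the 40 replication-linked rows in which EV replicate 1 was below EV replicate 2, by 0.09 and 0.12, while in H2bc4 EV replicate 1 was higher by 1.13. They were picked out after their values were seen.

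The genes that make and carry histones were set beside the histone rows. Of 31 measured genes of histone transcript processing and transcription, 11 rose and 1 (Mif4gd) fell in MYD88_L265P over EV, against 8.59% and 6.62% of all rows, with a median change of 0.27. Without EV replicate 2, 5 of the 31 were called higher (3.18% of all rows). Slbp, the stem-loop binding protein, had 10.43 and 10.42 in MYD88_L265P against 9.80 and 9.72 in EV (0.66 ± 0.08, adjusted p = 0.00886), and kept its call without EV replicate 2 (0.62, adjusted p = 0.0332). Npat, the activator of histone gene transcription, had 10.49 and 10.45 against 9.95 and 9.63 (0.68 ± 0.12, adjusted p = 0.0178). Casp8ap2, which works with Npat at histone gene clusters, rose by 0.81 ± 0.16 (adjusted p = 0.0229), and Eri1, an exonuclease that trims the stem-loop end, rose by 0.84 ± 0.12 (adjusted p = 0.0107). All 3 also passed without EV replicate 2. Sympk, a scaffold of the complex that cuts histone transcripts, rose by 1.38 ± 0.32 (adjusted p = 0.0346) and did not pass without EV replicate 2 (1.04, adjusted p = 0.111). Lsm10 and Lsm11, the specific subunits of the U7 particle, had changes of 0.16 and 0.13 and did not pass (adjusted p = 0.425 and 0.341). In IKK_K171E over EV, Slbp and Npat had changes of 0.36 and 0.41 that did not pass (adjusted p = 0.106 and 0.159), and only Snrpd3, a core spliceosomal protein also found in the U7 particle, was called of the 31 (0.94 ± 0.13, adjusted p = 0.0411; 0.687% of all rows were called higher).

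Of the same 31 genes, 2 were called higher in MYD88_L265P over IKK_K171E (0.661% of all rows), and both act at the octamer. Pou2af1, the B cell coactivator of octamer-bound POU factors, had 11.71 and 11.54 in MYD88_L265P against 10.93 and 10.90 in IKK_K171E (0.71 ± 0.09, adjusted p = 0.0259). Pou2f2, which encodes OCT-2, had 10.09 and 10.27 against 9.45 and 9.62 (0.65 ± 0.10, adjusted p = 0.0454). Over EV, Pou2af1 rose by 0.51 ± 0.09 in MYD88_L265P (adjusted p = 0.0197) and Pou2f2 had a change of 0.38 ± 0.10 (adjusted p = 0.0545). Their EV arrays had 11.11 and 11.13 for Pou2af1 and 9.82 and 9.78 for Pou2f2, with no gap of the kind seen in the histone rows. For both genes the IKK_K171E arrays lay below both EV arrays, as in 28.0% of all rows. Both genes were picked for their call in MYD88_L265P over IKK_K171E, a choice that favours low IKK_K171E values. Pou2f1, which encodes OCT-1, had no row with a single symbol and is not among the 31.

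Among 25 measured histone chaperones and assembly factors, 10 rose and 0 fell in MYD88_L265P over EV, against 8.59% and 6.62% of all rows, with a median change of 0.31. Nasp, which carries H3-H4 and linker histones, had 11.36 and 11.05 in MYD88_L265P against 9.97 and 9.44 in EV (1.50 ± 0.21, adjusted p = 0.0103). Without EV replicate 2 the change of Nasp was 1.23 (adjusted p = 0.0256), and in IKK_K171E over EV it was 1.24 ± 0.21 (adjusted p = 0.0536). Chaf1b, a subunit of the assembly factor CAF-1, rose by 1.20 ± 0.20 (adjusted p = 0.0163), and Anp32e, a chaperone that removes H2A.Z, by 1.09 ± 0.14 (adjusted p = 0.00886). Of the 25, 5 were called without EV replicate 2 (3.18% of all rows). In IKK_K171E over EV only Rbbp7, a histone-binding subunit of several chromatin complexes, was called of the 25 (0.71 ± 0.11, adjusted p = 0.0484; 0.687% of all rows were called higher).

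Of 9 measured genes listed as replication-independent histone variants, 1 rose in MYD88_L265P over EV, a share near the 8.59% of all rows. It was H2az1, which encodes H2A.Z, with 12.57 and 12.64 in MYD88_L265P against 12.11 and 11.63 in EV (0.74 ± 0.16, adjusted p = 0.0288). The median of the 9 was -0.02. H2ax, the variant phosphorylated at DNA breaks, had 10.04 and 10.08 in MYD88_L265P against 10.07 and 8.84 in EV (0.61 ± 0.35, adjusted p = 0.236). Cenpa, the centromeric H3, had 10.24 and 10.43 against 10.75 and 9.95, a change of -0.02.

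Cell cycle lists were set beside the histone rows as well. The G1/S list shares Slbp with the list of transcript processing and Mcm2 with the chaperone list, so these lists are not separate. Of 47 measured genes of G1/S transition and DNA replication, 28 rose and 0 fell in MYD88_L265P over EV (8.59% of all rows rose and 6.62% fell), with a median of 0.97. Of the 47, 12 were called without EV replicate 2 (3.18% of all rows). Ccne2, a cyclin of S phase entry, had 10.40 and 10.34 in MYD88_L265P against 8.87 and 8.32 in EV (1.78 ± 0.17, adjusted p = 0.0064), and Ccne2 and E2f3 were the 2 genes of the list called in IKK_K171E over EV (0.687% of all rows were called higher). Of 38 genes of G2/M and mitosis, 1 (Aurka, a mitotic kinase) rose in MYD88_L265P over EV, where 8.59% of all rows rose, and the median was 0.91. Without EV replicate 2 this median was 0.34 and 0 were called (3.18% of all rows), and without EV replicate 1 it was 1.50 and 35 were called (8.36% of all rows). Relative to row means, the G2/M list had medians of 0.43 and 0.52 on the MYD88_L265P arrays, 0.11 and -0.15 on the IKK_K171E arrays and 0.14 and -1.01 on the EV arrays. The G1/S list had 0.46 and 0.36, 0.30 and -0.09, and -0.26 and -0.78 in the same order. The 40 replication-linked histone rows thus had a positive median on EV replicate 1, as the G2/M list did. The G1/S list was negative on both EV arrays. The 24 replication-linked rows with a single symbol had a median of 0.01 on EV replicate 1, with 14 above the row mean and 10 below. Whether these lists account for the histone values was not tested.

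**Figure D4:**
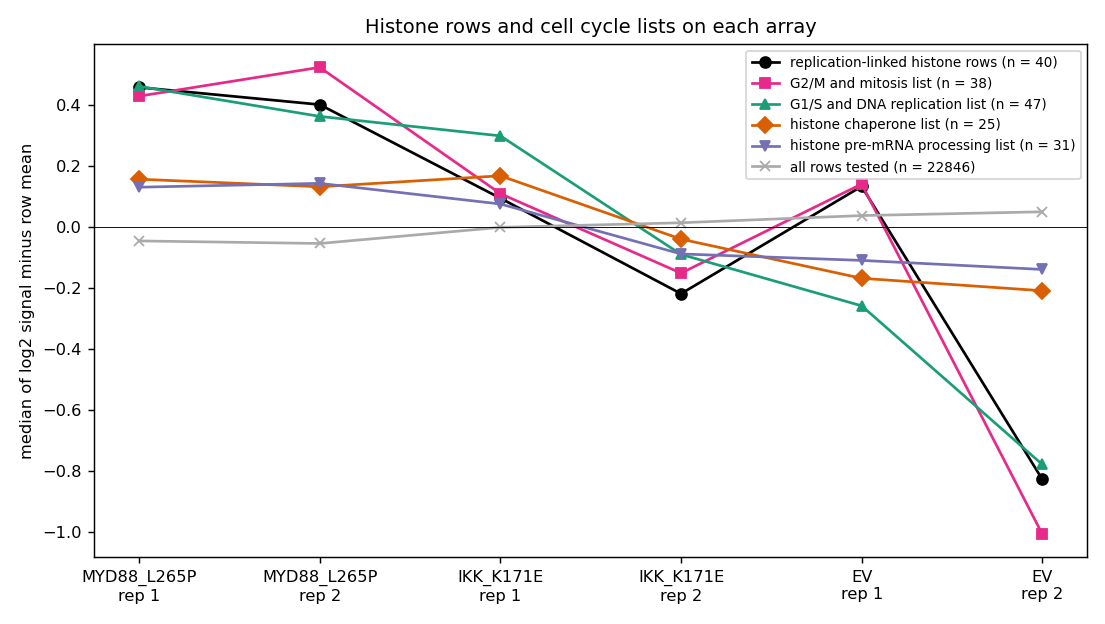
Median over genes of the log2 signal minus the row mean (vertical axis) on each of the 6 arrays, for the 40 replication-linked histone rows, 4 lists of related genes and all rows tested. Lines join the same list and imply no order of arrays. On EV replicate 2 the histone rows lie at -0.83, the G2/M list at -1.01 and the G1/S list at -0.78. On EV replicate 1 the histone rows and the G2/M list are above 0 and the G1/S list is at -0.26. The 24 of these histone rows with a single symbol have a median of 0.01 on EV replicate 1 (not drawn).

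Rows that carry histone symbols together with a symbol outside the chosen families were left out of all counts. They numbered 9, or 8 with identical values counted once. The 6 such H2B rows had values of 10.21 to 11.92 and 10.10 to 11.84 on the MYD88_L265P arrays, 9.71 to 11.41 and 9.53 to 11.09 on the IKK_K171E arrays and 9.85 to 11.48 and 8.55 to 10.08 on the EV arrays. Their changes were 0.96 to 1.14 in MYD88_L265P over EV and 0.54 to 0.69 in MYD88_L265P over IKK_K171E, and none passed. The 2 such H2A rows, whose symbols include H2ax, had changes of 0.71 and 0.86 in MYD88_L265P over EV, and neither passed. The gap between the EV arrays had a median of 1.39 in these H2B rows, larger than the 0.70 of the 8 single-symbol H2B rows of replication-linked genes.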

How the data were processed

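Values were the authors' deposited log2 signals of 24743 features on 6 Affymetrix arrays. The submitters' processing notes name oligo and limma without versions, and the series' design text says that the data were normalized. Which normalization and summarization were used, and on which genome build, is not stated. No value was transformed before the fit. Replicates are numbered as in the sample descriptions.

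The 22846 rows with at least 1 platform gene symbol, identical rows counted once, were fitted as group means over all 6 arrays with limma 3.58.1 in R 4.3.3 (3 residual, 3.79 prior degrees of freedom). Two-sided p-values were adjusted by Benjamini-Hochberg across the 22846 rows, and a row was called below 0.05. Both comparisons with EV share its arrays. Tables and figures were made with Python 3.11.15, pandas 2.3.3 and matplotlib 3.10.9. On simulated data for MYD88_L265P over EV (22846 rows), 31.3%, 80.6% and 98.5% of rows changed 1.5-fold, 2-fold and 4-fold were called. The simulation drew the spread of each row from that fitted over all rows. The EV arrays differed by a median of 0.84 in the histone rows, against a median size of 0.12 over all rows. These shares are thus not those of the histone rows. With 2 arrays per group the number of arrays limits the precision.

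The histone rows, gene lists and naming rule were chosen with earlier results of these data known. Named histone rows were the called rows, the largest change of each type and direction, and the replacement or tissue-restricted genes; further rows were added after their values were seen. From each list the text names called members with the largest changes and a set of genes fixed by name. Each listed gene was represented by its brightest row with 1 symbol. Spt2 was left out of the chaperone list, since RefSeq holds that name only as a synonym of Sptlc2, which is no chaperone. RefSeq (GRCm38.p6) gave positions and promoters. Alternatives covered the replicate block, normalization, variance model, array weights, low signal, the rows tested, the groups in the fit, a fold threshold and each array left out. The shared H3 rows and the shared H4 rows were also averaged to 1 row each.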

Additional observations from a re-analysis of the deposited data

How the results depend on the processing

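With 2 arrays per group, results rested on single arrays. Leaving out 1 array in turn gave 0 to 28 histone rows called higher in MYD88_L265P over EV (median log2 fold change 0.27 to 1.20), 0 to 16 in IKK_K171E over EV (median -0.17 to 0.64) and 0 to 1 in MYD88_L265P over IKK_K171E, against 5, 0 and 0 as reported. All rows called then numbered 21 to 3288, 0 to 500 and 3 to 523, against 3475, 219 and 302. The 28 and 16 came without EV replicate 1. All 5 called rows lost their call when EV replicate 2 or either MYD88_L265P array was left out, and H1f5 alone kept it when either IKK_K171E array was left out. With 1 IKK_K171E array left out, MYD88_L265P over EV is tested as in the fit of only the 2 groups. A group left with a single array adds nothing to the estimated spread. No histone row was called lower under any alternative run. With the shared H3 rows and the shared H4 rows averaged to 1 row each, 5, 0 and 0 rows were called higher. The median log2 fold change was then 0.49, 0.065 and 0.42 in the same order of comparisons.

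In MYD88_L265P over EV, 15 histone rows were called higher with the replicate block, 8 with array weights, 1 (H1f5) with only the 2 groups compared and 0 with a log2 fold change of at least 1. All rows called in either direction then numbered 3933, 4605, 3288 and 475 in the same order, against 3475 as reported. H1f1 and H2bc14 lost their call after quantile normalization. H2ac8 lost it with the trended prior variance, all rows of the table, identical rows kept, and without EV replicate 1, and was not tested with low signal left out. The replicate numbers were taken from the descriptions and were not treated as pairs. The titles number the arrays differently. They give the replicate 2 arrays of all groups the same number, but the replicate 1 array of EV another number than those of the other groups. Over all rows, same-numbered arrays deviated together at correlations of 0.26, 0.09 and 0.13. In the histone rows, replicate 1 exceeded replicate 2 in 34 of 46 rows in MYD88_L265P, 40 in IKK_K171E and 43 in EV. Whether the groups share a replicate effect in the histone rows was not tested. With the replicate block, 0 histone rows were called higher in IKK_K171E over EV and 2 in MYD88_L265P over IKK_K171E. There, the common median and the fit of only the 2 groups each called 1. Leaving out 1 EV array gives the same test of MYD88_L265P over IKK_K171E as the fit of only the 2 groups. Over all rows, a log2 fold change of at least 1 left 475, 77 and 103 calls. In IKK_K171E over EV, all calls numbered 417 with the replicate block, 346 after quantile normalization, 347 with low signal left out, 69 with array weights and 23 with only the 2 groups, and MYD88_L265P over IKK_K171E gave 523 with only the 2 groups.

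The common median moved the split of all calls in MYD88_L265P over EV to 2516 higher and 744 lower, against 1962 and 1513, and in MYD88_L265P over IKK_K171E to 194 and 102, against 151 and 151. Without detection calls, low signal such as that of H2ac8 and H3c7 was not separated from background. Over the 45 named genes and rows, 2052 values kept direction and side of the threshold, 122 lost a call, 46 gained one, 54 uncalled values changed sign, and no called value reversed. The cause of these differences was not tested.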
